A study of Mus musculus with 13 samples.

Results

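Prostacyclin and prostaglandin E2 signal to T cells through receptors that raise the second messenger cyclic AMP (cAMP). The 8 genes described here cover this route from the cell surface to the removal of cAMP: Ptgir, Ptger2 and Ptger4 for the receptors, Adcy7 for an adenylyl cyclase, and Pde3b, Pde4b, Pde4d and Pde7a for cAMP phosphodiesterases. They are 8 genes of the 13152 tested in unstimulated cells and of the 14241 tested in the model of all 13 libraries, and all 8 passed the filter on low counts in both. The genes were chosen by name from this pathway with earlier results of these data known, so that their levels and differences are given as descriptions, without p-values.

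The libraries were made from CD4 single-positive (CD4SP) thymocytes at the late M2 stage, sorted as CD69-negative and MHC class I-positive cells, and each library came from 1 mouse. All mice were Rag1-/- on a C57BL/6J background and carried the Lm54 transgenes, so that the thymocytes of every group expressed 1 fixed T cell receptor, specific for a listeriolysin O (LLO) peptide on the MHC class II molecule Iab. In the CtslΔTEC group a conditional Ctsl allele, encoding the lysosomal protease cathepsin L, was deleted by Foxn1-cre, which is active in thymic epithelial cells and not in the thymocytes that were sequenced. The labels give the controls as Ctsl fl/fl (WT), and they are called WT here. There were 5 CtslΔTEC mice (1 to 5) and 4 WT mice (1 to 4) without stimulation. A further 2 CtslΔTEC mice (6 and 7) and 2 WT mice (5 and 6) gave cells that were stimulated for 4 h with plate-bound LLO:Iab monomer at 1 µg/ml and soluble anti-CD28 at 250 ng/ml. The methods give mice of 8 to 12 weeks and both sexes as the default, and the labels give no age or sex for the single mice.

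In T cells the prostacyclin receptor IP, encoded by Ptgir, and the prostaglandin E2 receptors EP2 and EP4, encoded by Ptger2 and Ptger4, couple to the stimulatory G protein Gs. Gs activates adenylyl cyclases, which make cAMP from ATP, and cAMP then acts through protein kinase A (PKA) and the exchange factors called EPAC. Phosphodiesterases hydrolyse cAMP and so set how long the signal lasts. In T cells a rise in cAMP is known for damping signals of the T cell receptor, and in the thymus prostaglandin E2 and cAMP have long been studied in thymocyte survival and death.

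Estimated counts summed to 25692380 to 39127833 per unstimulated library and to 8085463 to 27184520 per stimulated library, the smallest being stimulated WT mouse 5. All 8 markers of CD4 T cells were present in every group, at a summed level of 5400 to 7199 TPM (transcript abundance per length, scaled to the same total in each library). Cd69, an early activation marker, was at 41.5 to 61.8 TPM in unstimulated CtslΔTEC and 47.1 to 58.5 TPM in unstimulated WT libraries, against 3102 to 3167 TPM and 2500 to 2635 TPM after stimulation. The deletion of Ctsl took place in other cells and could not be checked in these libraries, where Ctsl itself was at 10.7 to 16.5 TPM in unstimulated CtslΔTEC and 5.41 to 9.03 TPM in unstimulated WT cells. Rag1, the gene disrupted in all mice, was at 0.896 to 5.71 TPM in unstimulated CtslΔTEC and 0.547 to 1.07 TPM in unstimulated WT libraries, and which part of its transcript the allele leaves is not given in the sources used here. Y-linked transcripts were present in all 5 unstimulated CtslΔTEC libraries but in WT mouse 3 alone of the 4 unstimulated WT libraries. Sex and genotype thus overlap in this comparison. Of the stimulated libraries, CtslΔTEC mouse 7 and WT mouse 6 carried them, and CtslΔTEC mouse 6 and WT mouse 5 did not. The mix of sexes therefore also differs between unstimulated and stimulated libraries within each genotype. The file names date all 4 stimulated libraries to a day on which no unstimulated library falls, and date and stimulation cannot be told apart. The labels give no treatment or culture for the unstimulated libraries. The 4 h of culture and the stimulation therefore cannot be told apart either.

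Before the values, the upstream stretches of the 3 member genes with the largest differences below are shown, since these are the windows in which a cAMP response element would be looked for. Each is the 250 bases before a transcription start in the RefSeq promoter table (GRCm38.p6), 5′ to 3′ on the gene's own strand, which is the plus strand for all 3 genes. They are Ptgir at chr7:16906240-16906489, Ptger2 at chr14:44987861-44988110, and 2 starts of Adcy7, at chr8:88282742-88282991 for Adcy7-202 and at chr8:88288816-88289065, next to the start of Adcy7-204. The remaining Adcy7 window, at chr8:88293954-88294203 next to the start of Adcy7-201, held no TGACG on either strand and is not printed. Capitals mark the core of the cAMP response element, TGACG on either strand.
Ptgir: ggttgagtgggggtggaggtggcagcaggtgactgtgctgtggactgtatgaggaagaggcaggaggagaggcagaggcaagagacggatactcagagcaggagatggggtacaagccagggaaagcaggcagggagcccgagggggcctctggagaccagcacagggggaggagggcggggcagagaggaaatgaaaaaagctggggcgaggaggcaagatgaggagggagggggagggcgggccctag
Ptger2: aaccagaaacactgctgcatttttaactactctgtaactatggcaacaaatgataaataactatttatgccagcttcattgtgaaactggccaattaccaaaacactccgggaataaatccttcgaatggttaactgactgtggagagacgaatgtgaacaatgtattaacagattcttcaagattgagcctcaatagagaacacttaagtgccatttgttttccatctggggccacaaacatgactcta
Adcy7, Adcy7-202 start: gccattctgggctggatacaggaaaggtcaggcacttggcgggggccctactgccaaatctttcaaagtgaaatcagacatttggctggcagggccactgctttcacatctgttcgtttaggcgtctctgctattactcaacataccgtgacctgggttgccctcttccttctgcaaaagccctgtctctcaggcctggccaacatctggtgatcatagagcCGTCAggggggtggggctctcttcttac
Adcy7, next to the Adcy7-204 start: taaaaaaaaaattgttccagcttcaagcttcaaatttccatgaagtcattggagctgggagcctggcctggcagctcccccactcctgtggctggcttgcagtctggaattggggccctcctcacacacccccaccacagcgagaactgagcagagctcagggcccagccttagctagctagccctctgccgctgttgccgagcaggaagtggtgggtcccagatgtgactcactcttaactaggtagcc
No capitals stand in the Ptgir and Ptger2 stretches or in the later Adcy7 stretch, and the earlier Adcy7 stretch holds 1 core on the minus strand, first base 28 bases before the start. In the whole table, 588 of 32851 windows of 300 bases held the full element TGACGTCA (1.79%) and 6837 held the core (20.8%), which also lies within the full element. Windows were found for 6 of the 8 genes, and none of their windows held the full element. Besides the Adcy7 window shown, 1 window of Pde4b held the core, on the minus strand, 34 bases before the start at its first base. A match in such a window is a description of its letters and not a binding site. Neither Pde3b nor Pde7a had a window in the table. GC made up 62.0% of the 300-base window of Ptgir and 37.7% of that of Ptger2, beside a median of 52.7% over all windows.

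Ptgir had the widest genotype difference of the 8 genes, both at rest and after stimulation. In unstimulated CtslΔTEC libraries it was at 3.30, 3.01, 2.11, 2.55 and 3.62 TPM in mice 1 to 5, and in unstimulated WT libraries at 22.2, 27.3, 28.0 and 21.8 TPM in mice 1 to 4. The lowest WT library stood well above the highest CtslΔTEC library, on 118 to 312 estimated counts per CtslΔTEC library and 1695 to 1851 per WT library. The means were 2.92 ± 0.597 TPM (SD, n = 5) and 24.8 ± 3.29 TPM (SD, n = 4), and the fitted log2 difference in counts scaled to library size (CPM) was -3.15 (SE 0.16), a fold of 8.89. In bulk libraries, fewer cells with a transcript and less of it per cell cannot be told apart. Only 1 unstimulated WT library, mouse 3, carried Y-linked transcripts as the unstimulated CtslΔTEC libraries did. Its Ptgir was at 28.0 TPM and 63.1 CPM, where the unstimulated WT libraries ranged from 49.1 to 64.5 CPM. When the fit also held a term for Y-linked expression, the log2 difference of Ptgir was -3.29 (SE 0.22). The unstimulated libraries themselves fell on more than 1 date, and how the genotypes divide over these dates is not given here. Among the 6 unstimulated libraries of the second date alone, the log2 difference of Ptgir was -3.13 (SE 0.15).

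Ptgir kept this order after stimulation, at a smaller distance. Stimulated CtslΔTEC libraries had 3.31 and 3.78 TPM in mice 6 and 7, and stimulated WT libraries had 13.8 and 14.8 TPM in mice 5 and 6. The groups again did not overlap, with a fitted log2 difference of -2.02 (SE 0.23), a fold of 4.06. In WT cells Ptgir fell by 0.71 on the log2 scale with stimulation (SE 0.19), and in CtslΔTEC cells its log2 difference was 0.42 (SE 0.20). The response in CtslΔTEC cells exceeded that in WT cells by a log2 value of 1.13 (SE 0.27). Each stimulated group holds 2 mice: the response of Ptgir in CtslΔTEC cells was no longer called when mouse 4, 6 or 7 of that genotype or stimulated WT mouse 5 or 6 was left out, with values of 0.27 to 0.50 in these 5 fits. Likewise, the difference in response was not called without stimulated CtslΔTEC mouse 7 (log2 1.00) or stimulated WT mouse 5 (log2 1.15).

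Ptger2 was nearly absent from resting M2 cells of both genotypes and appeared on stimulation. Unstimulated CtslΔTEC libraries held 0.249, 0.401, 0.163, 0.0976 and 0.323 TPM, and unstimulated WT libraries 0.202, 0.111, 0.321 and 0.202 TPM, on 7 to 29 estimated counts per library. After stimulation it was at 9.91 and 9.66 TPM in CtslΔTEC libraries and at 10.2 and 13.6 TPM in WT libraries. All stimulated libraries thus lay above all unstimulated ones in TPM. The log2 difference with stimulation was 5.91 (SE 0.33) in WT cells, a fold of 60.2, and 5.37 (SE 0.30) in CtslΔTEC cells, a fold of 41.2. Between the genotypes, the log2 difference was 0.23 (SE 0.41) in unstimulated and -0.31 (SE 0.33) in stimulated cells, and neither was called.

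Ptger4, the most abundant member receptor in CtslΔTEC cells, varied least of the 3. Its levels were 15.7, 15.3, 17.3, 17.5 and 14.8 TPM in unstimulated CtslΔTEC libraries and 21.9, 16.5, 18.3 and 12.9 TPM in unstimulated WT libraries, where the groups overlapped widely. Stimulated CtslΔTEC libraries held 20.5 and 17.3 TPM and stimulated WT libraries 18.2 and 29.2 TPM, a range that again overlapped. The log2 difference between genotypes was -0.15 (SE 0.11) without and -0.33 (SE 0.19) with stimulation. The response was 0.56 (SE 0.16) on the log2 scale in WT cells and 0.39 (SE 0.16) in CtslΔTEC cells, both called. The first was not called without stimulated WT mouse 6 and the second was not called without stimulated CtslΔTEC mouse 6, each then at a log2 difference of 0.25.

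**Figure D1:**
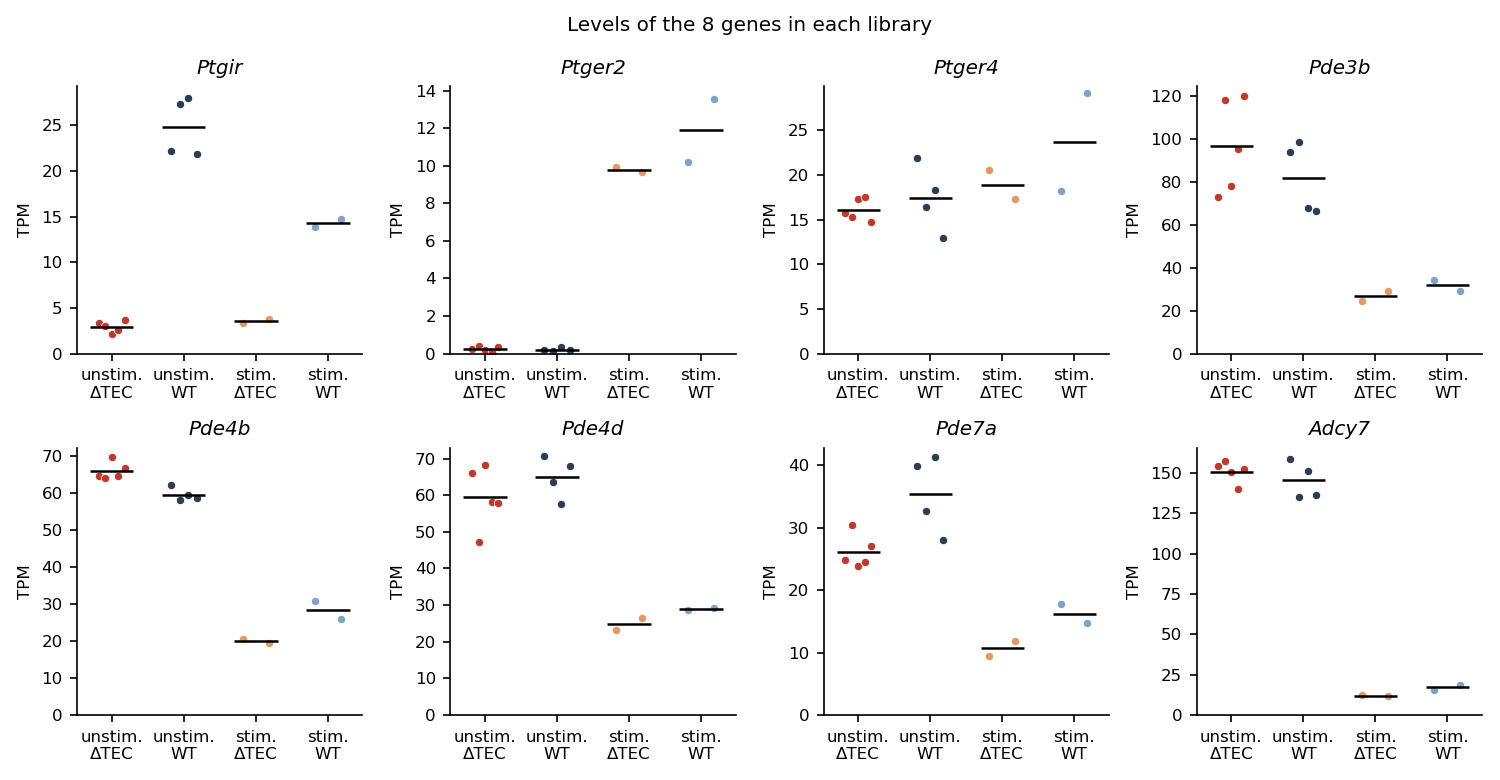
TPM of each of the 8 genes in every library, 1 point per mouse and a bar at the group mean, for unstimulated and stimulated CtslΔTEC and WT cells. Ptgir lies at 2.11 to 3.62 TPM in unstimulated CtslΔTEC libraries and at 21.8 to 28.0 TPM in unstimulated WT libraries, while Adcy7 drops from at least 135 TPM to at most 18.5 TPM with stimulation in both genotypes.

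Adcy7, which encodes an adenylyl cyclase found widely in lymphocytes, had the highest TPM of the 8 genes in all unstimulated libraries. It stood at 154, 157, 150, 140 and 153 TPM in the CtslΔTEC mice and at 158, 135, 151 and 137 TPM in the WT mice, so the genotypes overlapped, with a log2 difference of -0.00 (SE 0.06). After stimulation it was at 12.4 and 11.7 TPM in CtslΔTEC libraries and at 15.7 and 18.5 TPM in WT libraries. Each stimulated library thus held less than any unstimulated one. The log2 difference with stimulation was -3.04 (SE 0.10) in WT cells, a fold of 8.24, and -3.57 (SE 0.10) in CtslΔTEC cells, a fold of 11.9. The stimulated CtslΔTEC libraries lay below the stimulated WT libraries by 0.53 on the log2 scale (SE 0.10), a fold of 1.45. The difference between the 2 responses was -0.53 (SE 0.12) on the same scale, and it was not called without stimulated CtslΔTEC mouse 7 (log2 -0.49).

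Among the member phosphodiesterases, Pde7a was the one with a called genotype difference at rest. It was at 24.9, 30.5, 23.8, 24.5 and 27.0 TPM in unstimulated CtslΔTEC libraries and at 39.8, 32.7, 41.3 and 28.0 TPM in unstimulated WT libraries. In TPM the groups overlapped through WT mouse 4, whereas in CPM they were apart, at 52.2 to 67.7 against 84.7 to 89.2. The log2 difference was -0.54 (SE 0.08), a fold of 1.46. After stimulation Pde7a was at 9.51 and 11.8 TPM in CtslΔTEC and at 17.8 and 14.7 TPM in WT libraries, with a log2 difference of -0.46 (SE 0.14). This last call was lost when CtslΔTEC mouse 3, 6 or 7 or stimulated WT mouse 5 was left out, and without stimulated WT mouse 5 the log2 difference was -0.26. With stimulation Pde7a changed by -1.07 (SE 0.12) in WT and by -0.98 (SE 0.12) in CtslΔTEC cells on the log2 scale.

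Pde4b, which encodes a cAMP-specific enzyme that is recruited to the stimulated T cell receptor complex, showed its genotype difference after stimulation. Unstimulated CtslΔTEC libraries held 64.5, 64.0, 69.8, 64.7 and 66.8 TPM and unstimulated WT libraries 62.1, 58.0, 59.6 and 58.7 TPM. These groups did not overlap in TPM but overlapped in CPM, and the fitted log2 difference of 0.09 (SE 0.06) was not called. Stimulated CtslΔTEC libraries held 20.5 and 19.5 TPM, both below the 30.9 and 25.8 TPM of the stimulated WT libraries, with a log2 difference of -0.57 (SE 0.12), a fold of 1.48. It was -0.34 without stimulated WT mouse 5 and still called. Pde4b fell by 0.95 on the log2 scale with stimulation in WT cells (SE 0.11) and by 1.61 in CtslΔTEC cells (SE 0.11). The 2 responses differed by -0.66 (SE 0.15), a value that was -0.43 and not called without stimulated WT mouse 5.

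Pde3b and Pde4d fell with stimulation in both genotypes and had no called genotype difference. Pde3b, an enzyme that cGMP inhibits, was at 72.7, 118, 78.1, 95.3 and 120 TPM in unstimulated CtslΔTEC libraries and at 93.6, 98.4, 67.8 and 66.1 TPM in unstimulated WT libraries, the widest range in TPM among the members at rest. Stimulated libraries held 24.6 and 29.2 TPM in CtslΔTEC and 34.4 and 29.2 TPM in WT cells. Its log2 difference with stimulation was -1.30 (SE 0.23) in WT and -1.77 (SE 0.23) in CtslΔTEC cells, and between genotypes it was 0.22 (SE 0.17) at rest and -0.25 (SE 0.25) after stimulation. Pde4d, a cAMP-specific enzyme of the same family as Pde4b, was at 66.1, 47.3, 68.2, 58.1 and 57.8 TPM in unstimulated CtslΔTEC libraries and at 70.6, 63.6, 57.7 and 68.0 TPM in unstimulated WT libraries. The genotypes overlapped, and stimulated libraries fell to 23.1 and 26.5 TPM in CtslΔTEC and 28.6 and 29.1 TPM in WT cells. The log2 difference of Pde4d with stimulation was -1.04 (SE 0.12) in WT and -1.20 (SE 0.12) in CtslΔTEC cells, and between genotypes -0.18 (SE 0.08) at rest and -0.34 (SE 0.13) after stimulation.

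Over the 8 genes, 2 were called lower in unstimulated CtslΔTEC cells and none higher at an adjusted p under 0.1 (edgeR quasi-likelihood test). Over all genes tested, 8.36% were called lower and 6.42% higher, so that 43.4% of the called genes were higher. With library totals in place of TMM factors this share was 56.8%. In stimulated cells 4 of the 8 were called lower in CtslΔTEC cells and none higher, where 10.6% of all genes were called lower and 2.77% higher. The WT response called 2 of the 8 higher and 6 lower, with 32.9% of all genes higher and 34.8% lower. The CtslΔTEC response called 3 higher and 5 lower, with 32.9% and 38.2% of all genes. For the difference between the responses, 1 of the 8 was called higher (1.13% of all genes) and 2 lower (4.88% of all genes). The genes were chosen with such results known, so nothing is read from these counts. The median log2 difference of the 8 genes was -0.08 at rest and -0.40 after stimulation between genotypes, and it was -0.995 for the WT and -1.09 for the CtslΔTEC response. Over all genes tested the same medians were 0.01, -0.05, 0.01 and -0.06.

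**Figure D2:**
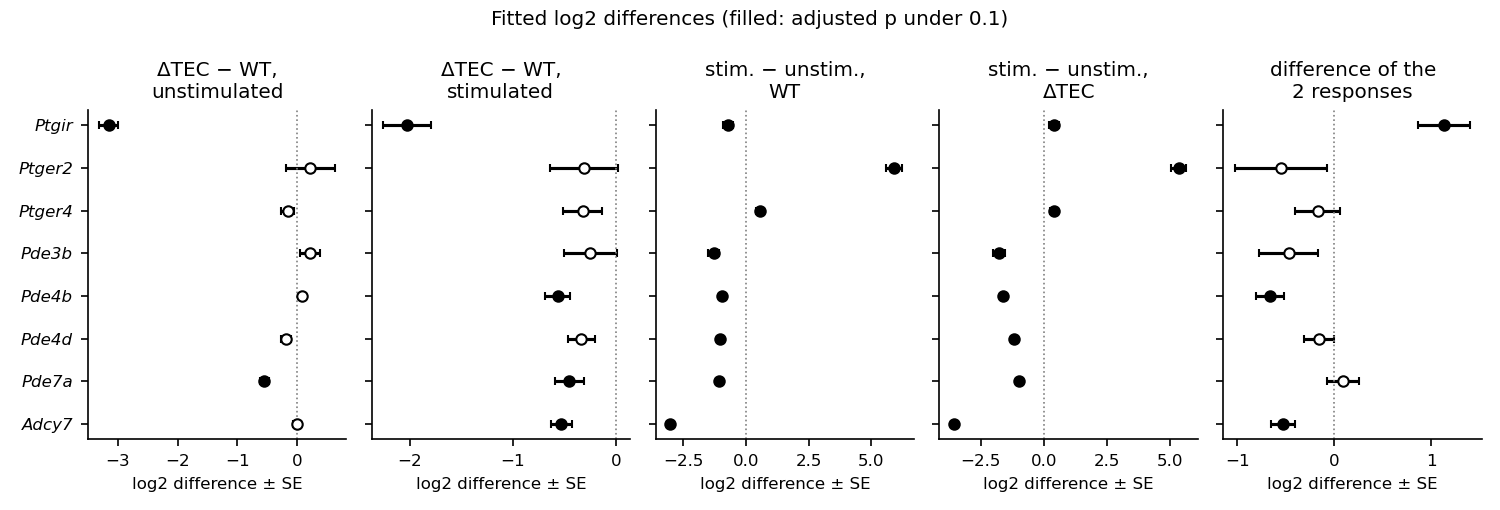
Fitted log2 difference with its SE for each of the 8 genes in the 5 comparisons, with filled points for an adjusted p under 0.1 over all genes tested. The widest genotype difference is that of Ptgir (-3.15 at rest and -2.02 after stimulation), and the widest responses are those of Ptger2 (5.91 in WT and 5.37 in CtslΔTEC cells) and Adcy7 (-3.04 and -3.57).

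Ordered by mean TPM, the 8 genes fell differently in the 4 groups. In unstimulated CtslΔTEC cells the order was Adcy7, Pde3b, Pde4b, Pde4d, Pde7a, Ptger4, Ptgir and Ptger2, and of the neighbours Pde4b and Pde4d alone overlapped in range. In unstimulated WT cells Ptgir stood between Pde7a and Ptger4 and overlapped with both, while Adcy7 again led and Ptger2 came last, each apart from its neighbour. After stimulation Pde3b led in both genotypes. In stimulated CtslΔTEC cells Ptgir was last, apart from Ptger2 above it, whereas in stimulated WT cells Ptger2 was last, below Ptgir and without overlap. From Pde4d down to Ptgir, all neighbours in the stimulated WT order overlapped.

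The share of each gene within its family was taken from summed TPM, a set of sums chosen after the values were seen. Of the TPM of all 9 prostanoid receptor genes, Ptgir made up 2.78 to 4.86% in unstimulated CtslΔTEC libraries and 22.8 to 30.7% in unstimulated WT libraries. After stimulation its share was 9.18 and 10.8% in CtslΔTEC and 28.6 and 23.6% in WT libraries. The Ptger2 share was at most 0.575% in unstimulated libraries and 21.1 to 27.5% in stimulated ones. The summed TPM of the receptors was itself lower after stimulation, at 35.2 to 62.5 against 69.7 to 101 at rest. The thromboxane receptor gene Tbxa2r was at 44.6 to 61.8 TPM in unstimulated and at 0.974 to 5.30 TPM in stimulated libraries. Adenylyl cyclase genes summed to 226 to 290 TPM at rest and to 28.7 to 40.6 TPM after stimulation, and Adcy7 made up 53.2 to 61.8% and 40.7 to 47.1% of these sums. Adcy6 was the next most abundant cyclase at rest, at 74.1 to 116 TPM. The 4 member phosphodiesterases made up 86.8 to 91.3% of the TPM of all cAMP-hydrolysing phosphodiesterases at rest and 66.8 to 75.4% after stimulation. Within the PDE4 family the share of Pde4a, a gene that is no member, was at most 0.163% at rest and 5.90 to 9.51% after stimulation.

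**Figure D3:**
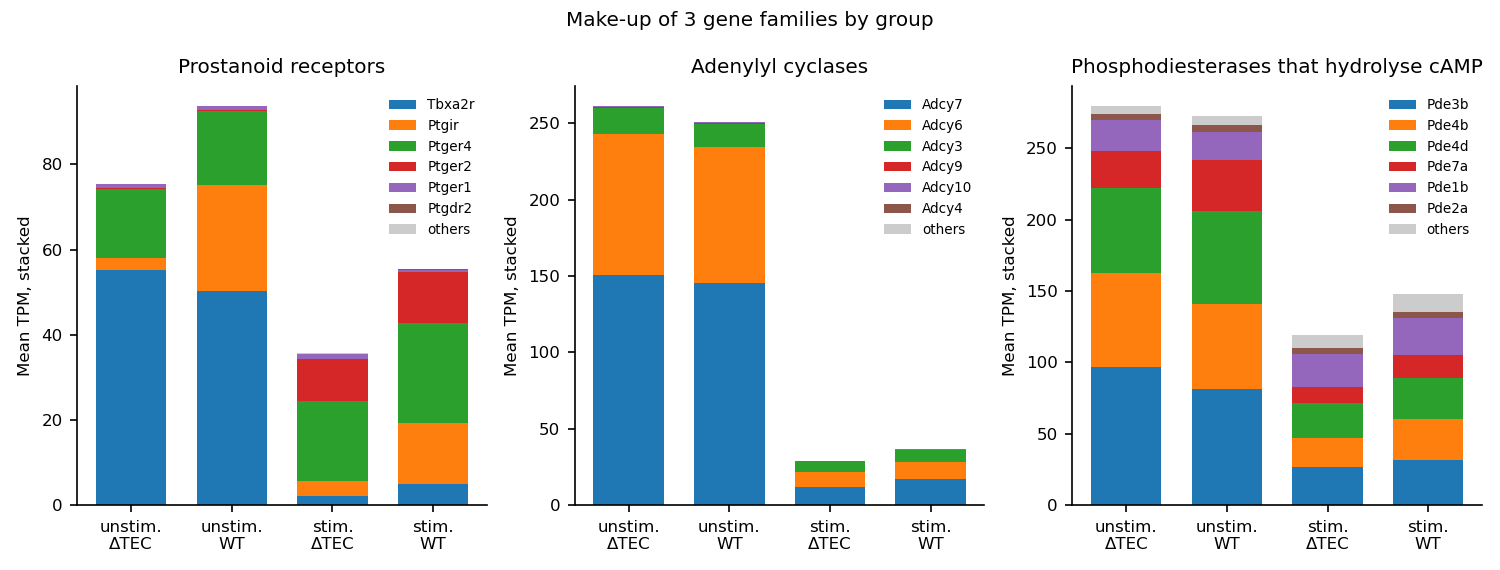
Mean TPM per group, stacked by gene, of the prostanoid receptors, the adenylyl cyclases and the cAMP-hydrolysing phosphodiesterases. The cyclase sum is 226 to 290 TPM in unstimulated and 28.7 to 40.6 TPM in stimulated libraries, and Ptgir forms 2.78 to 4.86% of the receptor sum in unstimulated CtslΔTEC libraries against 22.8 to 30.7% in unstimulated WT libraries.

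The deposited values are per transcript, so the transcripts behind each gene could be read. Ptgir, at chr7:16906490-16910905 on the plus strand (GRCm38), has 2 transcripts: Ptgir-202, with 2 exons and a coding sequence of 415 residues, and Ptgir-201, with 3 exons and 212 residues. Ptgir-202 held on average 71.6% of the Ptgir TPM in unstimulated CtslΔTEC, 82.3% in unstimulated WT, 66.6% in stimulated CtslΔTEC and 72.2% in stimulated WT cells. Both transcripts followed the order of the gene: Ptgir-202 averaged 2.09 TPM in unstimulated CtslΔTEC against 20.4 TPM in unstimulated WT cells, and Ptgir-201 averaged 0.831 against 4.40 TPM. The share of Ptgir-201 ranged from 18.3 to 38.8% over the unstimulated CtslΔTEC libraries and from 16.3 to 19.9% over the WT libraries, and these ranges overlapped.

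Ptger2, at chr14:44988195-45003820 on the plus strand, had most of its TPM on Ptger2-202, a single-exon transcript that the annotation gives as a retained intron with no coding sequence. It held on average 65.7 to 78.4% of the Ptger2 TPM in the 4 groups, and in single unstimulated libraries as little as 43.6% of the Ptger2 counts. The coding transcript Ptger2-201, with 362 residues, averaged 0.0754 TPM in unstimulated CtslΔTEC and 0.0674 TPM in unstimulated WT cells, and 2.11 and 3.16 TPM after stimulation. With protein-coding transcripts alone, the log2 response of Ptger2 was 5.71 (SE 0.35) in WT and 4.97 (SE 0.31) in CtslΔTEC cells. The annotation places 2 genes on the opposite strand within Ptger2, Gm49364 and Gm17173. The methods give default settings for quantification where nothing else is stated, and they do not name strand.

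Ptger4, at chr15:5206661-5244187 on the minus strand, was split nearly evenly between Ptger4-201 (513 residues, 45.1 to 58.4% of its TPM on average) and Ptger4-202 (488 residues, 41.4 to 53.2%), and it overlaps Ttc33 and Gm15937 on the opposite strand. Adcy7, at chr8:88272403-88329962 on the plus strand, came mainly from Adcy7-204 (1099 residues), at 55.2 to 65.4% of its TPM on average, and from Adcy7-201 (1099 residues), at 14.3 to 23.5%. At rest the share of Adcy7-201 was 14.9 to 18.8% in CtslΔTEC and 19.3 to 26.9% in WT libraries, and that of Adcy7-204 was 63.2 to 66.4% and 54.0 to 62.8%, so that the groups did not overlap in either share while the gene's TPM overlapped. Pde3b, at chr7:114415281-114539251 on the plus strand, came from Pde3b-201 (1099 residues) for 85.1 to 90.4%. Pde4b, at chr4:102087543-102607259 on the plus strand, was carried by Pde4b-207 (721 residues, 49.6 to 55.5%) and the shorter Pde4b-203 (564 residues, 31.6 to 40.0%). These 2 transcripts differ in coding length, as is known of the long and short forms of PDE4 enzymes.

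Pde4d, at chr13:108449948-109953461 on the plus strand, was carried by Pde4d-207 (584 residues, 49.4 to 57.1%) and by Pde4d-206, which is annotated as a target of nonsense-mediated decay (34.0 to 40.4%). Within its span the annotation holds 5 other genes, all of them small RNAs or a pseudogene. Pde7a, at chr3:19223108-19311322 on the minus strand, was spread over 10 transcripts, with Pde7a-202 (482 residues) at 31.7 to 37.2% and Pde7a-201 (456 residues) at 16.2 to 22.4% on average. It overlaps Gm16093 on the opposite strand. An offset for the average transcript length in each library left the calls of Pde7a in place between the genotypes and in both responses.

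**Figure D4:**
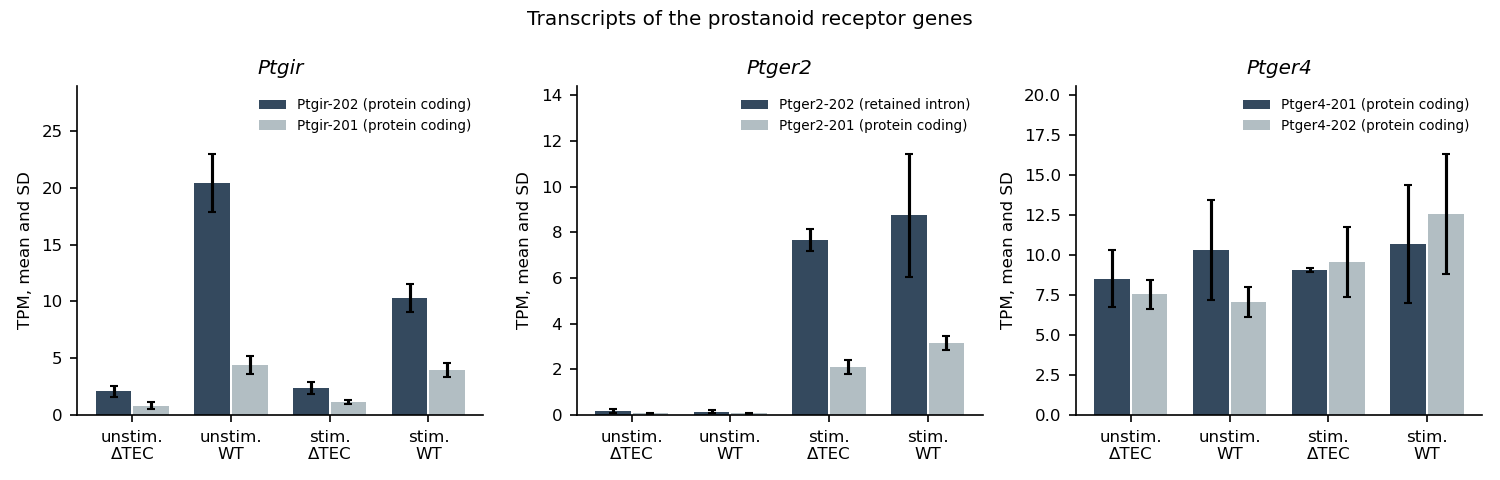
Mean and SD of TPM over the libraries of each group for the transcripts of Ptgir, Ptger2 and Ptger4. Ptgir-202 averages 2.09 TPM in unstimulated CtslΔTEC and 20.4 TPM in unstimulated WT cells, and most Ptger2 TPM in stimulated cells lies on Ptger2-202, a retained intron without a coding sequence.

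Of 119 other genes of the pathway in 12 lists, 83 were tested in unstimulated cells. The genotypes differed at an adjusted p under 0.1 in 16 of them, 5 higher and 11 lower in CtslΔTEC cells (edgeR quasi-likelihood test with Benjamini-Hochberg adjustment over all genes tested, as for all adjusted p below). The shares over all genes tested were 6.42% higher and 8.36% lower. The median log2 difference over the 83 genes was 0.03, beside 0.01 over all genes tested. With the term for Y-linked expression, Gnas and Vipr1 were the 2 of these 16 still called. The replicate block kept 8 of the 16, the second date alone 11 and an adjusted p under 0.05 kept 10, whereas date as a factor kept all 16 among 24 calls. With each of the 9 mice left out in turn, the calls named below were lost in 8 fits for Prkaca, 7 for Crtc3, 6 for Nr4a3, 5 each for Ptgr1 and Gnal, 4 for Prkar1a and 3 for Adcy9, and the other 9 genes were called in each fit.

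Of 7 other receptors that couple to Gs, 2 fell and none rose. Vipr1, the receptor for vasoactive intestinal peptide, was at 22.9 to 46.5 TPM in unstimulated CtslΔTEC and 70.8 to 108 TPM in unstimulated WT libraries, a log2 difference of -1.53 (SE 0.15, adjusted p 8.09e-05, edgeR). Adora2a, a receptor for adenosine, had a log2 difference of -0.59 (SE 0.11, adjusted p 0.00544, edgeR). Both receptors raise cAMP in lymphocytes. Neither of the 2 other prostanoid receptors tested was called, and Tbxa2r had a log2 difference of 0.09 (SE 0.08). Of the alpha subunits, Gnas, which encodes Gs itself, fell by 0.45 on the log2 scale (SE 0.06, adjusted p 0.000533, edgeR) and Gnal rose by 0.49 (SE 0.14), as 2 of 6 tested. In the synthesis and transport list, Abcc4, an exporter of prostaglandins and cAMP, fell by 0.33 (SE 0.07) and the reductase gene Ptgr1 by 0.99 (SE 0.29), as 2 of 11. Ptgis, which encodes prostacyclin synthase and is named after its values were seen, was at 0 counts in all 13 libraries, where a count of 0 allows up to 3 counts.

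Further down the pathway, 2 of 4 other cyclases tested rose, Adcy1 by 1.12 (SE 0.29) and Adcy9 by 0.77 (SE 0.25) on the log2 scale, on at most 56 and 184 counts per library. Of 7 other cAMP phosphodiesterases, Pde8a fell by 1.19 (SE 0.29) and Pde4c by 1.06 (SE 0.22), at TPM of at most 3.10 and 1.36 in unstimulated libraries. None of the 4 genes tested of the list of cGMP-specific phosphodiesterases and their subunits was called. Among them Pde6d, which encodes a subunit that binds prenyl groups and does not hydrolyse cGMP, was at 0.11 (SE 0.11). Of 8 PKA subunits and inhibitors, Prkar2a fell by 0.62 (SE 0.11, adjusted p 0.00402, edgeR), Prkar1a by 0.21 (SE 0.06) and Prkaca by 0.19 (SE 0.06). Akap12, a scaffold that anchors PKA, rose by 0.74 (SE 0.15) as the 1 of 11 anchoring proteins called. In the EPAC and RAP1 list none of 4 was called (Rap1b -0.19, SE 0.09). Crtc3, a coactivator of the transcription factor CREB, fell by 0.21 (SE 0.07) as 1 of 11, and of 8 genes known as cAMP and CREB targets Nr4a3 alone was called, 0.38 higher (SE 0.12).

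In stimulated cells 95 of the 119 genes were tested and 15 differed between the genotypes, 2 higher and 13 lower in CtslΔTEC cells, beside 2.77% higher and 10.6% lower over all genes tested. Both counts are close to these shares. The median over the 95 genes was -0.15, beside -0.05 over all genes tested. Abcc4 had a log2 difference of -1.11 (SE 0.15, adjusted p 0.000456, edgeR), Vipr1 of -1.41 (SE 0.28, adjusted p 0.00589, edgeR) and Adora2a of -0.81 (SE 0.15, adjusted p 0.00338, edgeR). These 3 genes were lower in CtslΔTEC cells with and without stimulation, as were Gnas, Ptgr1, Prkar2a, Prkaca and Crtc3. Tbxa2r fell by 1.15 (SE 0.29), Cbr1, a carbonyl reductase that acts on prostaglandins, by 0.51 (SE 0.13), Gnas by 0.40 (SE 0.10), Gnai2 by 0.41 (SE 0.13) and Adcy3 by 0.48 (SE 0.13). Ptgr1 was also called lower, but it had at most 2 counts in stimulated CtslΔTEC libraries and at most 25 in stimulated WT libraries, so no fold is given. Of the PKA list, Prkacb fell by 0.60 (SE 0.12), Prkar2a by 0.85 (SE 0.18) and Prkaca by 0.43 (SE 0.11), and in the CREB list Crtc3 fell by 0.48 (SE 0.11). The 2 genes called higher were the targets Nr4a2, by 1.25 (SE 0.39), and Nr4a3, by 0.68 (SE 0.18). Lists without a call had their most abundant genes at -0.16 for Pde1b (SE 0.20), -0.06 for Pde6d (SE 0.17), 0.12 for Akap8 (SE 0.10) and 0.13 for Rap1b (SE 0.15). Fitted on the 4 stimulated libraries alone, 8 of the 15 were still called, and 9 were without stimulated WT mouse 5. With each of the 13 mice left out in turn, Abcc4, Vipr1, Adora2a, Prkacb, Prkar2a, Prkaca and Crtc3 were called in each fit. The other 8 calls were lost in at least 1 fit that left out stimulated CtslΔTEC mouse 6 or 7 or stimulated WT mouse 5, and that of Gnai2 also without CtslΔTEC mouse 3 or stimulated WT mouse 6. Tbxa2r was at -0.65 without CtslΔTEC mouse 6 and -2.21 without CtslΔTEC mouse 7, and Nr4a3 at 0.40 without WT mouse 5. Nr4a2 was also not called with DESeq2, and neither Nr4a2 nor Adcy3 was called with a length offset or protein-coding transcripts. Gnai2 was not called with upper-quartile factors or a length offset. With protein-coding transcripts alone, Akap8 was called lower, at -1.47.

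**Figure D5:**
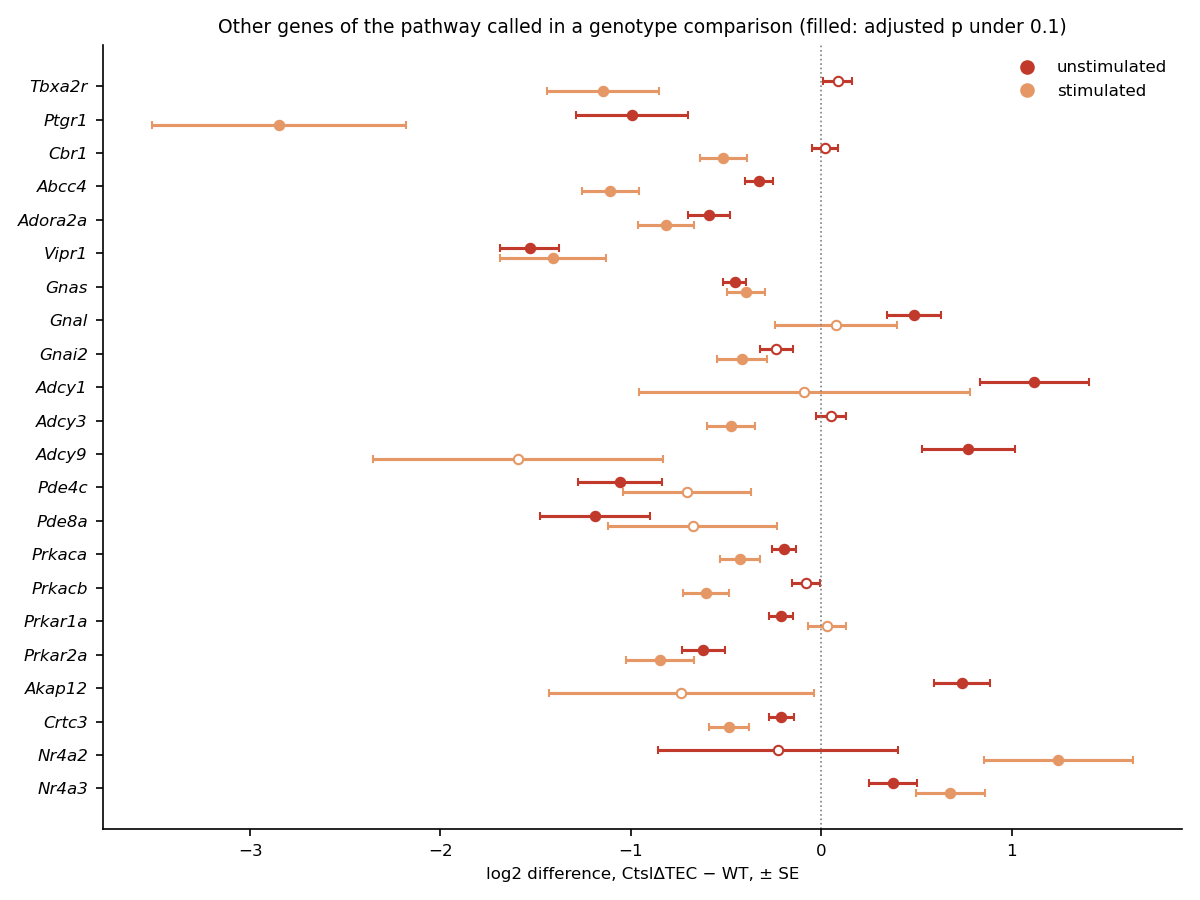
Log2 difference between CtslΔTEC and WT cells, with its SE, of the other pathway genes called in at least 1 genotype comparison, for unstimulated and stimulated cells, with filled points for an adjusted p under 0.1. Vipr1 lies at -1.53 and -1.41 and Adora2a at -0.59 and -0.81, while Abcc4 lies at -0.33 and -1.11.

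With stimulation, 71 of 95 pathway genes were called in WT cells, 40 higher and 31 lower, beside 32.9% higher and 34.8% lower over all genes tested. In CtslΔTEC cells 70 were called, 36 higher and 34 lower, beside 32.9% and 38.2%. Nothing particular to the pathway is read from these counts. The 2 comparisons have no libraries in common, but they share 1 model and the date of the stimulated libraries. Of the other prostanoid receptors tested, Tbxa2r was the 1 of 2 called, at -3.29 (SE 0.23) in WT and -4.52 (SE 0.26) in CtslΔTEC cells. Of the 8 other Gs-coupled receptors, Adora2a rose by 3.98 (SE 0.13) and 3.76 (SE 0.12) and Gpr174, the receptor for lysophosphatidylserine, by 1.66 (SE 0.18) and 1.89 (SE 0.17), in WT and CtslΔTEC cells in this order. Vipr1 and the receptor gene Calcrl fell, at -2.93 and -1.97 in WT cells and -2.81 and -2.47 in CtslΔTEC cells. Hence both directions occurred among receptors that couple to Gs. Hrh2, a histamine receptor gene, was called in WT cells at 0.62 (SE 0.24) and was at 0.11 (SE 0.24) in CtslΔTEC cells. Hrh2 reversed to -0.10 in WT cells without stimulated WT mouse 6.

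In the cyclase list all 6 other genes tested were called in WT cells, 2 higher and 4 lower. In CtslΔTEC cells 5 were called, 1 higher and 4 lower. The WT call of Adcy1 was lost without stimulated WT mouse 6 (-1.83, then -1.11). That of Adcy10 was lost with no filter, with DESeq2, at an adjusted p under 0.05, and without WT mouse 1, 3 or 5. Adcy6 changed in the direction of Adcy7, by -2.86 (SE 0.17) on the log2 scale in WT and by -3.19 (SE 0.18) in CtslΔTEC cells. All 4 member phosphodiesterases fell, whereas of the 10 other cAMP phosphodiesterases tested 6 rose and 2 fell in WT cells, and 4 rose and 1 fell in CtslΔTEC cells. Pde4a rose by 5.84 (SE 0.39) in WT and 5.16 (SE 0.34) in CtslΔTEC cells, from at most 16 counts per unstimulated library to 98 to 380 per stimulated library. Pde7b, the paralogue of Pde7a, rose by 2.81 (SE 0.46) and 1.94 (SE 0.43), on at most 36 counts per library. With a length offset its CtslΔTEC call was lost. Pde11a fell by 2.23 (SE 0.39) and 2.99 (SE 0.40). Without stimulated WT mouse 6 the WT value of Pde11a was -1.37. Of 5 genes of the cGMP-specific list 2 rose and 1 fell in each genotype. Those that rose were Pde6g and Pde6h, which encode inhibitory subunits. The one that fell was Pde6d, at -0.55 (SE 0.15) and -0.72 (SE 0.14), so none of the 3 encodes an enzyme that hydrolyses cGMP. The CtslΔTEC call of Pde6h was lost without stimulated CtslΔTEC mouse 6 and with a length offset (-0.52). That of Pde6g was lost with protein-coding transcripts.

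Of 8 PKA genes, 3 rose and 3 fell in WT cells and 3 rose and 4 fell in CtslΔTEC cells. Prkar2a rose by 1.09 (SE 0.15) and 0.86 (SE 0.15), and the catalytic subunit gene Prkacb fell by 1.79 (SE 0.11) and 2.31 (SE 0.11). Of 11 anchoring proteins 2 rose in each genotype, Akap5 at 2.58 and 2.56 and Akap1 at 1.84 and 1.82, and 6 fell in WT and 7 in CtslΔTEC cells. In the EPAC list of 4 genes, 2 rose and 2 fell in WT cells and 2 rose and 1 fell in CtslΔTEC cells. Rapgef4 fell by 3.03 (SE 0.12) and 3.39 (SE 0.12) while Rap1a rose by 0.39 (SE 0.11) and 0.86 (SE 0.10). The CREB list had 6 genes higher and 3 lower in each genotype, with Crem at 2.88 (SE 0.13) and 3.13 (SE 0.12), the kinase gene Sik1 at 2.68 (SE 0.18) and 3.06 (SE 0.17), and Crtc3 at -1.68 (SE 0.10) and -1.95 (SE 0.10). Of 10 target genes 8 rose in WT and 7 in CtslΔTEC cells and none fell. Nr4a2 and Nr4a3, which are also known as early genes of T cell receptor signalling, rose by 8.87 and 7.64 in WT and by 10.38 and 7.94 in CtslΔTEC cells. Areg, which encodes a growth factor, was called higher in both, from at most 1 count per unstimulated library to at most 51 after stimulation, so no fold is given. In the synthesis list 5 rose in each genotype and 3 fell in WT and 5 in CtslΔTEC cells, among them Hpgds, a prostaglandin D synthase gene, at 2.73 (SE 0.35) and 2.48 (SE 0.32). The cyclooxygenase gene Ptgs2 was also called higher but had at most 4 counts per unstimulated library and at most 30 after stimulation, so no fold is given. Of the 6 alpha subunit genes, 1 rose and 3 fell in WT and 2 rose and 3 fell in CtslΔTEC cells. Gnaz rose in both genotypes at 1.54 (SE 0.38) and 0.97 (SE 0.37), the first being 0.93 without stimulated WT mouse 5. Its CtslΔTEC call was lost without stimulated CtslΔTEC mouse 7. Gnai2 fell by 1.39 (SE 0.12) and 1.57 (SE 0.12). Leaving out stimulated WT mouse 6 kept 56 of the 71 WT calls. Among those lost were Gnal (-0.94, then -0.51), Rapgef3 (1.30, then 0.60) and Pde6g (1.21, then 0.58). Gnao1 (-2.85, then -1.83) and Pde10a (1.84, then 0.73) were also lost. Leaving out stimulated CtslΔTEC mouse 6 ended the CtslΔTEC call of Gnai3 (0.32, then 0.11).

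The response differed between the genotypes in 5 of the 95 genes, each lower in CtslΔTEC cells, beside 4.88% lower and 1.13% higher over all genes tested, so that count and direction are close to those of all genes. They were Abcc4 at -0.78 (SE 0.17, adjusted p 0.0256, edgeR), Tbxa2r at -1.23 (SE 0.33), Cbr1 at -0.53 (SE 0.14), Adcy3 at -0.52 (SE 0.15) and Prkacb at -0.52 (SE 0.14), all on the log2 scale. Without stimulated WT mouse 5 none of the 5 was called, without stimulated CtslΔTEC mouse 6 Abcc4 alone was, and without stimulated CtslΔTEC mouse 7 Cbr1 and Tbxa2r were. Without unstimulated CtslΔTEC mouse 2 or 3 or WT mouse 1, Abcc4 and Tbxa2r were the ones of the 5 still called. These were Abcc4 and Prkacb with the Y-linked covariate, and Abcc4, Cbr1 and Tbxa2r with RLE factors. At an adjusted p under 0.05 (edgeR) Abcc4 alone was called, and several other settings ended the call of Adcy3, Cbr1 or Prkacb. Tbxa2r was at -0.73 without stimulated CtslΔTEC mouse 6 and -2.29 without stimulated CtslΔTEC mouse 7. The most abundant genes of lists without a call were at 0.23 for Gpr174 (SE 0.26), -0.18 for Gnai2 (SE 0.16), -0.24 for Pde1b (SE 0.23), -0.17 for Pde6d (SE 0.20), 0.01 for Akap8 (SE 0.12), 0.32 for Rap1b (SE 0.18), -0.01 for Crtc2 (SE 0.14) and 0.68 for Nr4a1 (SE 0.57).

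The genes whose pattern over the 13 libraries was most like that of each member were taken by the smallest root mean square difference of centred log2 CPM among 10090 genes. This is a description, since the 13 libraries share the 4 groups. For Ptgir they were Chl1 (0.676), St3gal5 (0.715), Sox13 (0.722), Ptgfrn (0.739) and Tspan31 (0.770). No gene came as close to Ptgir as the nearest did to the other members. For Ptger2 they were Cd69 (0.450), Cd274 (0.455) and Bend4 (0.475). Ptger4 was nearest to Lpgat1, Elavl1 and Reep3 (0.155 to 0.160), and Adcy7 to Sp100, Rapgef4 and Rassf2 (0.135 to 0.147). Pde3b was nearest to Gramd1c, Stat4 and Dnajc3 (0.190 to 0.197), and Pde4b to Tmem268, Glipr2 and Lrrc28 (0.0863 to 0.0911). Pde4d was nearest to Nadk2, Zc3hav1 and Cox7a2l (0.0864 to 0.105), and Pde7a to Abhd5, Decr2 and Gfod2 (0.127 to 0.157).

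Markers of other cells are given beside the genotype differences. The 8 markers of double-positive (DP) thymocytes, the stage before CD4SP cells, summed to 200 to 270 TPM in unstimulated CtslΔTEC and 45.3 to 67.4 TPM in unstimulated WT libraries, and to 56.7 to 59.8 TPM and 19.6 to 23.1 TPM after stimulation. None of the 8 was at 0 in a whole group. The sum was higher in CtslΔTEC cells wherever Ptgir was lower, and its part in the difference of Ptgir and Pde7a was not tested. The 6 markers of regulatory T cells summed to 39.2 to 55.0 TPM at rest and 358 to 376 TPM after stimulation in both genotypes. Whether this rise lay in the sorted CD4SP cells or in other cells was not tested. The 6 thymic epithelial markers summed to 3.85 to 11.8 TPM over all libraries, with Krt5 at 0 in 3 of the 4 groups. The 8 myeloid markers summed to 6.48 to 23.3 TPM, with Cd14 at 0 in 3 of the 4 groups and Lyz2 also at 0 in stimulated WT libraries. The 5 B cell markers summed to at most 1.79 TPM and the 5 NK cell markers to at most 6.71 TPM, with Ncr1 at 0 in all libraries. The 6 erythroid markers summed to 160 to 771 TPM in unstimulated CtslΔTEC, 189 to 318 TPM in unstimulated WT and 9.67 to 63.1 TPM in stimulated libraries. Il2, a product of activated T cells, was at 4.18 and 7.79 TPM in stimulated CtslΔTEC and at 71.1 and 73.0 TPM in stimulated WT libraries.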

How the data were processed

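RNA from sorted M2 CD4SP thymocytes of 13 mice was sequenced, 1 library per mouse. Reads were quantified by the authors with kallisto 0.48 against Ensembl transcripts. The deposited files hold estimated counts per transcript, not normalized, and the deposited TPM values are transcript abundances per length, scaled to the same total in each library. The labels name polyA RNA and the methods rRNA depletion, and which was used is not settled here. Of 117497 transcripts, 116397 were paired with a gene through a mouse annotation of GRCm38 by transcript ID. The other 1100 held 0.365 to 0.461% of the estimated counts and were left out. Estimated counts and TPM were summed per gene, and the sums of counts were rounded.

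Genes were tested with edgeR 4.0.16 in R 4.3.3 (TMM factors, filterByExpr, quasi-likelihood test), with Benjamini-Hochberg adjustment over all genes tested and a call at an adjusted p under 0.1. The genotypes were compared in the 9 unstimulated libraries. Stimulated cells, both responses and the difference between them were taken from 1 model of all 13 libraries with 1 coefficient per group. The 5 comparisons share libraries and are not independent of each other. Log2 differences are CtslΔTEC minus WT or stimulated minus unstimulated. An SE is that of the fitted log2 coefficient. CPM uses the TMM library sizes. A difference in counts depends on depth, which was lowest in stimulated WT mouse 5. Scripts were tested on simulated data.

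The members and lists were chosen with earlier results of these data known. The pathway genes named were drawn from the 3 called genes of each list with the largest log2 difference in each direction, or, where none was called, the gene with the highest TPM. Transcripts are named at 20% or more of a gene's TPM in a group, and like genes are the nearest 5 for Ptgir and the nearest 3 for the others at a mean log2 CPM of at least 1. Alternatives were DESeq2 1.42.0, other size factors, no filter, protein-coding transcripts, a length offset, a Y-linked covariate, dates, a replicate block, a threshold of 0.05 and leaving out each mouse. Some genes of the lists with very few counts are not reported with a fold. The result of 1 listed gene is not reported here.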

Additional observations from a re-analysis of the deposited data

Results flagged for a closer look

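The unstimulated WT libraries held 2 single values apart from the rest of their group. Pde4d was low in WT mouse 3, at 129 CPM, and Pde7a was low in WT mouse 4, at 84.7 CPM. Such a value was looked for in 32 group levels, those of the 8 genes in TPM and in CPM in both unstimulated groups, and chance gives about 1 in 20 of them. Neither gene had such a value in TPM.

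The response to stimulation differed between the genotypes in 8 of the named genes by the interaction term of the model of 13 libraries. Ptgir had a log2 difference between the responses of 1.13, the only one above 0 among the 8. Pde4b was at -0.66 and Adcy7 at -0.53. Among the other pathway genes, Abcc4 was at -0.78, Tbxa2r at -1.23, Cbr1 at -0.53, Adcy3 at -0.52 and Prkacb at -0.52. Each of these rests on 2 stimulated mice per genotype. With an adjusted p under 0.05, Abcc4 was the 1 of the 5 other pathway genes still called.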

How the results depend on the processing

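At rest, the genotype difference of Ptgir kept its direction and call in each setting, from -3.29 to -3.11, and from -3.23 to -3.05 with each mouse left out, and so did that of Pde7a, from -0.58 to -0.48 and from -0.59 to -0.50. After stimulation Ptgir ranged from -2.16 to -1.92 with a mouse left out. The stimulated difference of Pde7a was not called with protein-coding transcripts (-0.39), with the 4 stimulated libraries alone (-0.40) or at an adjusted p under 0.05. The CtslΔTEC response of Ptgir was not called with upper-quartile factors (0.36), library totals (0.27), no filter (0.36), a length offset (0.36) or an adjusted p under 0.05, and that of Ptger4 was not called with library totals (0.25). Without WT mouse 4, Ptger4 was called at rest (-0.26). With the Y-linked covariate the uncalled differences of Ptger2 and Pde4d at rest were -0.41 and 0.03. The cause of these changes was not tested.

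Of all genes, 1943 were called at rest, 2710 with date as a factor, 2286 with DESeq2, 429 with the Y-linked covariate and 1056 with the replicate block, under which 2 of the 8 members were called. Same-numbered mice deviated from their group means with correlations of -0.155, 0.347, -0.097 and -0.138 over 13152 genes. These values do not settle whether mouse numbers pair the samples. In stimulated cells 1898 genes were called, 1127 with the 4 stimulated libraries alone and 945 (without CtslΔTEC mouse 6) to 2235 (without WT mouse 6) with a mouse left out. The responses differed in 856 genes, in 471 at an adjusted p under 0.05 and in 334 to 1227 with a mouse left out, again without CtslΔTEC mouse 6 and WT mouse 6, and 1 to 3 members were called. Higher genes were 43.4% of calls at rest and 28.2% with the Y-linked covariate, and 18.8% of the interaction calls and 29.5% with DESeq2. Library totals moved the median of all genes in the CtslΔTEC response from -0.06 to -0.21.

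Some pathway genes changed sign. With protein-coding transcripts Akap8 was at -1.47 between stimulated genotypes, called lower, and at -1.28 between responses, and Ptgs1 at 0 in the WT response. With a length offset Pde6h was at -0.52 in the CtslΔTEC response. Between responses, Akap8 was at -0.040 with library totals, Pde1b at 0.015 with the Y-linked covariate, and Crtc2 at 0.029 (RLE factors), 0.019 (upper-quartile factors), 0.019 (length offset), 0.028 (DESeq2) and 0.080 (Y-linked covariate). With a mouse left out, the stimulated genotypes differed by -0.40 to 0.13 for Pde1b, -0.18 to 0.027 for Pde6d and -0.031 to 0.27 for Rap1b. The WT response of Hrh2 ranged from -0.10 to 1.02, and the responses differed by -0.48 to 0.048 for Pde1b, -0.094 to 0.12 for Akap8 and -0.11 to 0.097 for Crtc2.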
